A study of Homo sapiens with 6 samples.

Results

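Plexins and semaphorins were followed in SU-DHL-8 cells, a long-established culture of human diffuse large B-cell lymphoma, as 10 named genes among the 65746 symbols of the count table. They are the plexins PLXNA1, PLXNA3, PLXNB1, PLXNB2, PLXNC1 and PLXND1 and the semaphorins SEMA4A, SEMA4B, SEMA4D and SEMA7A. The genes were picked by name with the response to the compound already known, led by the low level of PLXNA1 after treatment, so their differences between the groups are given as a description with no test. One group had received 100 nM erianin for 24 h. The other had received DMSO, the solvent, for the same time. Both groups carry the label WT, with 3 libraries each, and the labels do not say whether these came from separate cultures, so errors and p-values measure the spread between libraries, which may be technical. Erianin, a bibenzyl found in Dendrobium orchids, is known as a compound that binds tubulin.

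Plexins are single-pass membrane receptors for semaphorins, a family of secreted, membrane-spanning or lipid-anchored ligands that share an extracellular sema domain. The cytoplasmic part of a plexin acts on Rap GTPases, and plexins govern adhesion, the actin cytoskeleton and migration. The family was found through axon guidance, and in lymphoid tissue it is known for cell contacts, with SEMA4D (CD100), SEMA4A and SEMA7A as immune semaphorins. A-type plexins answer class 3 semaphorins together with a neuropilin, B-type plexins bind class 4 semaphorins, PLXND1 binds SEMA3E and SEMA4A, and PLXNC1 binds SEMA7A.

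Total counts were 32844464 to 35307027 in the erianin libraries and 30956443 to 35588728 in the DMSO libraries. A count of 3, the smallest treated as a signal, equals 0.0843 to 0.0969 CPM (counts scaled to a common library total). This floor covers counting error only and is given before TMM scaling, which the other CPM values include. DMSO replicate 1 stood apart. The biological coefficient of variation was 0.0336 to 0.0815 between erianin libraries and 0.038 between DMSO replicates 2 and 3, but 0.292 and 0.295 between DMSO replicate 1 and those libraries. Ribosomal protein genes took 10.46% to 10.97% of counts in the erianin libraries, 7.98% in DMSO replicate 1 and 11.35% and 11.21% in DMSO replicates 2 and 3. All 8 listed B-cell markers were detected, summed at 2310 to 2580 CPM with erianin and 2740 to 3760 CPM with DMSO. Of these, edgeR called 1 higher (CD79A) and 2 lower (CD79B and PAX5), beside 11.8% and 12.3% of all genes tested. Once DMSO replicate 1 was omitted, 3 were called higher and 4 lower, beside 27.8% and 27.4% of all genes. PAX5 kept its call in every fit that left out a library, while CD79A and CD79B kept theirs only without DMSO replicate 1 (adjusted p up to 0.095 and 0.16 otherwise). CD79A was also not called with the replicate block (adjusted p = 0.081) or with offsets for GC content and length (log2 fold change 0.13, adjusted p = 0.63). PAX5, the transcription factor of B-cell identity, had 419 ± 12.9 CPM with erianin and 836 ± 84.8 CPM with DMSO (SD, n = 3 each). Of 8 T, NK and myeloid markers, summed at 14.1 to 16.1 CPM with erianin and 6.11 to 12.6 CPM with DMSO, CD2 was at 0 and CD3D, CD3E and ITGAM reached at most 0.164 CPM. The most abundant were LYZ, at 7.74 ± 0.769 CPM with erianin and 5.76 ± 1.44 CPM with DMSO, and NKG7, at 4.99 ± 0.429 CPM with erianin and 4.34 ± 2.21 CPM with DMSO, and neither was called (adjusted p = 0.18 and 0.75). The 2 called, both higher, were CD14 (adjusted p = 0.0067) and CSF1R (adjusted p = 0.020, not called without erianin replicate 1 or 2 or DMSO replicate 2 or 3, with adjusted p up to 0.091). CD14 reached 1.57 ± 0.0245 CPM with erianin, against 0.109 ± 0.138 CPM with DMSO, and CSF1R 0.441 ± 0.117 CPM with erianin, against 0.123 ± 0.0282 CPM with DMSO. Both genes passed the filter on low counts through their erianin libraries alone. Nothing is therefore read from these 2 calls, beside 11.8% of all genes called higher. The part of these markers in the results was not tested. In bulk RNA, fewer cells that express a gene and less RNA per cell cannot be told apart.

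The A-type plexins PLXNA1 and PLXNA3 stood on opposite sides of 0. PLXNA1 (ENSG00000114554, chromosome 3, 126988594 to 127037392, plus strand, GRCh38, GENCODE 29) encodes a receptor that pairs with neuropilins for class 3 semaphorins and, in mouse dendritic cells, with Trem2 and Tyrobp for Sema6d. Its level was 2.84, 3.21 and 3.97 CPM in the erianin libraries, against 11.1, 13.9 and 12.4 CPM in the DMSO libraries, from 104 to 139 reads with erianin and 338 to 451 with DMSO. Every erianin library lay below every DMSO library, and the erianin mean was lower by a factor of 3.74. The fitted log2 fold change was -1.90 ± 0.17 (SE; edgeR), and 26 of the 11550 genes tested had a lower one.

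PLXNA3 (ENSG00000130827, chromosome X, 154458281 to 154477779, plus strand), the A-type receptor that works with NRP2 in axon guidance, had 146, 149 and 165 CPM with erianin, against 72.3, 72.9 and 70.8 CPM with DMSO. It was the most abundant plexin per length in both groups, and the groups did not overlap. The erianin mean was 2.13 times the DMSO mean (log2 fold change 1.09 ± 0.10).

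The annotated transcripts of these paralogs shared almost no stretch of 50 bases. Whether reads were assigned to the wrong paralog was not tested. Their coding sequences, 5688 bases in PLXNA1 and 5613 in PLXNA3, aligned over 5575 bases with 74.2% identity, against 60.2% to 63.7% between PLXNA1 and PLXNB2, PLXNC1 or PLXND1. Of 10891 stretches of 50 bases in annotated PLXNA1 transcripts, 1 was found in another gene, and that gene was PLXNA3. The coding window around it is shown because exact matches of 50 bases could mix the counts of the pair there. It spans an intron in each gene, at chr3:127032508-127032733 for PLXNA1 and chrX:154471226-154471535 for PLXNA3, both on the plus strand of GRCh38, and comes from the GENCODE 29 transcripts. Capitals mark the run of 50 identical bases, and 124 of the 140 bases in the window were identical. Across all genes, PLXNA3 shared 239 of its 11749 stretches, most often with XIAP, in 38.
PLXNA1: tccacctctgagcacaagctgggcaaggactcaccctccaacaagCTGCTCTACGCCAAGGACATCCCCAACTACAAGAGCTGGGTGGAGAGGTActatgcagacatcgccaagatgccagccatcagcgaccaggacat
PLXNA3: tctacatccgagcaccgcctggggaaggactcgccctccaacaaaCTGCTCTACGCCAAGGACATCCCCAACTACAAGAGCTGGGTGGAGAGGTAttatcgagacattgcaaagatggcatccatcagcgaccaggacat

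PLXND1 (ENSG00000004399, chromosome 3, 129555175 to 129606818, minus strand) encodes the receptor that binds SEMA3E without a neuropilin and can bind SEMA4A. It had 15.4, 13.3 and 16.8 CPM with erianin, against 4.73, 5.98 and 5.32 CPM with DMSO. All erianin libraries were above all DMSO libraries, by a factor of 2.84 between means (log2 fold change 1.50 ± 0.15, and 1.44 ± 0.13 without DMSO replicate 1). PLXND1 and PLXNA1 lie on the same chromosome, and their levels crossed. PLXND1 was the more abundant of the pair in every erianin library and the scarcer in every DMSO library on the per-length TPM scale (read density along the transcript, scaled to a common total). Per length, PLXND1 over PLXNA1 in the same library was 3.69, 2.81 and 2.87 with erianin, against 0.289, 0.292 and 0.291 with DMSO.

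PLXNC1 (ENSG00000136040, chromosome 12, 94148723 to 94307675, plus strand), the receptor for SEMA7A, had 34.0, 35.3 and 30.0 CPM with erianin, against 53.7, 45.1 and 41.9 CPM with DMSO. The groups did not overlap, and the largest DMSO value came from DMSO replicate 1. The log2 fold change was -0.50 ± 0.13 with all libraries and -0.38 ± 0.08 without DMSO replicate 1. On its transcripts, 222 exonic bases overlap the antisense gene AC073655.2, and the sources used here do not say whether counting used strand.

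PLXNB2 (ENSG00000196576, chromosome 22, 50274979 to 50307627, minus strand), a B-type receptor for class 4 semaphorins, overlapped between groups, at 25.8, 22.5 and 28.2 CPM with erianin, against 21.6, 26.6 and 27.8 CPM with DMSO (log2 fold change 0.01 ± 0.14). DMSO replicate 1 was the lowest library, and without it the estimate was -0.08 ± 0.09. PLXNB1 (ENSG00000164050, chromosome 3, 48403854 to 48430051, minus strand), the high-affinity receptor of SEMA4D outside the immune system, had 0, 3 and 2 reads with erianin, against 0, 0 and 2 with DMSO. Both groups were at or under 3 reads per library, so no fold is given and the gene was not among those tested.

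**Figure D1:**
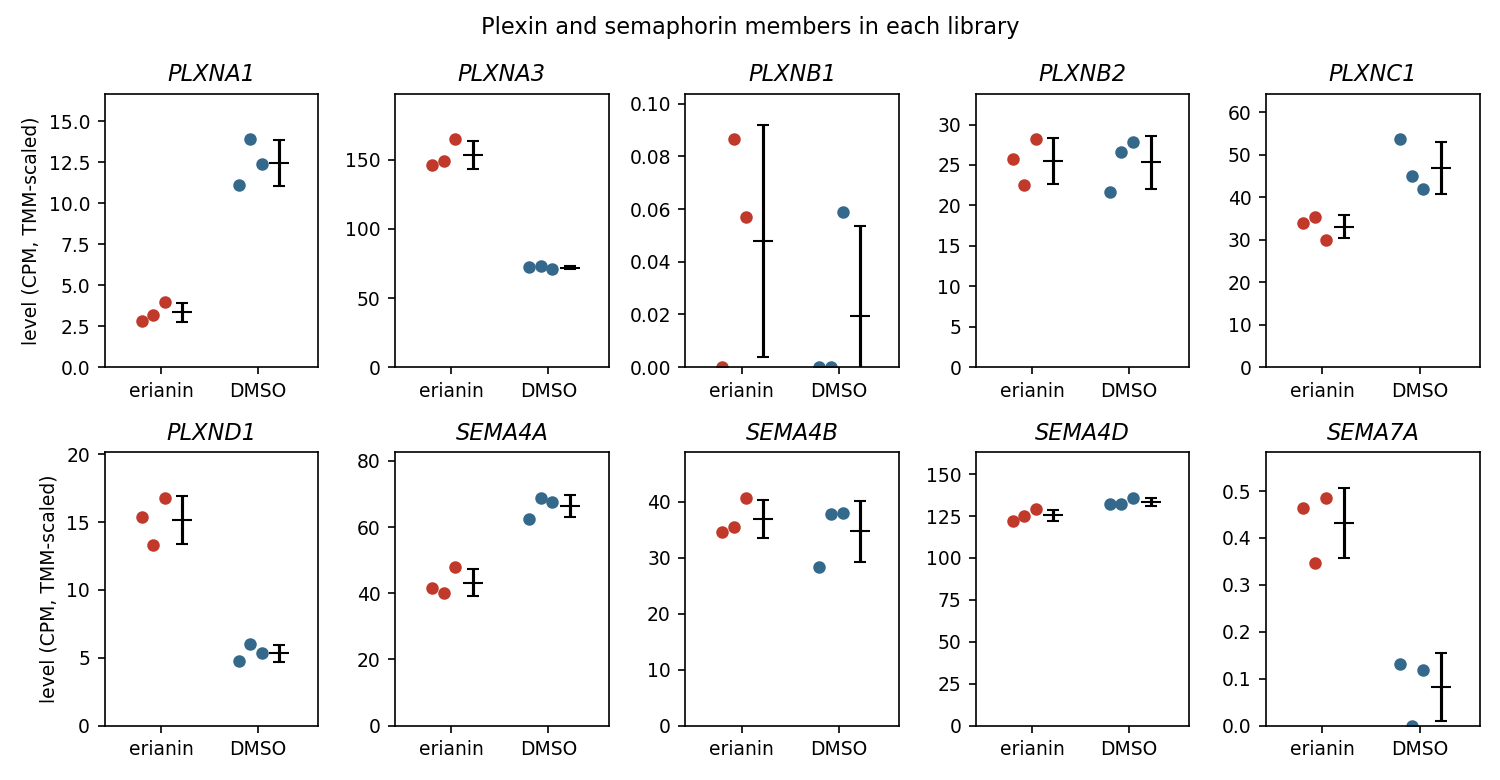
Level of each of the 10 members in CPM after TMM scaling (y axis, from 0, a scale per gene) in the 3 erianin and 3 DMSO libraries (points, in the order of replicate numbers), with the mean and SD beside them. PLXNA1 sits at 2.84 to 3.97 CPM with erianin and 11.1 to 13.9 CPM with DMSO, while PLXNA3 sits at 146 to 165 CPM with erianin and 70.8 to 72.9 CPM with DMSO.

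SEMA4A (ENSG00000196189, chromosome 1, 156147366 to 156177752, plus strand), a membrane semaphorin that costimulates T cells in mouse, had a larger difference than the other class 4 members, SEMA4B and SEMA4D. It had 41.5, 40.2 and 47.8 CPM with erianin, against 62.5, 68.9 and 67.5 CPM with DMSO. The groups did not overlap, and the erianin mean was lower by a factor of 1.54 (log2 fold change -0.62 ± 0.11, and -0.65 ± 0.08 without DMSO replicate 1).

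SEMA4D (ENSG00000187764, chromosome 9, 89360787 to 89498130, minus strand), the lymphocyte semaphorin CD100 that binds CD72 and B-type plexins, had 122, 125 and 129 CPM with erianin, against 132, 132 and 136 CPM with DMSO. The erianin libraries lay just below the DMSO libraries, by 1.06 times between means (log2 fold change -0.09 ± 0.09). The estimate turned to 0.02 with counts scaled by library totals alone, where the median of all genes moved to 0.11. On TPM the estimates were 0.17 and 0.18, beside medians of all genes of 0.20 and 0.28. With offsets for GC content and length the estimate was 0.05, beside a median of -0.06. SEMA4B (ENSG00000185033, chromosome 15, 90160604 to 90229679, plus strand), another membrane semaphorin, had 34.5, 35.5 and 40.7 CPM with erianin, against 28.4, 37.8 and 37.9 CPM with DMSO. Its groups overlapped, with DMSO replicate 1 the lowest library (log2 fold change 0.09 ± 0.15, and -0.02 ± 0.08 without it).

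SEMA7A (ENSG00000138623, chromosome 15, 74409289 to 74433958, minus strand) encodes the lipid-anchored ligand of PLXNC1 and beta-1 integrin. It had 17, 12 and 17 reads with erianin, against 4, 0 and 4 with DMSO. That is 0.464, 0.347 and 0.486 CPM with erianin, against 0.131, 0 and 0.118 CPM with DMSO. A count of 0 in DMSO replicate 2 allows up to 0.0877 CPM before TMM scaling. The log2 fold change of 2.34 ± 0.63 rests on these few reads. SEMA7A passed the filter on low counts through its erianin libraries alone, so it had to differ.

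**Figure D2:**
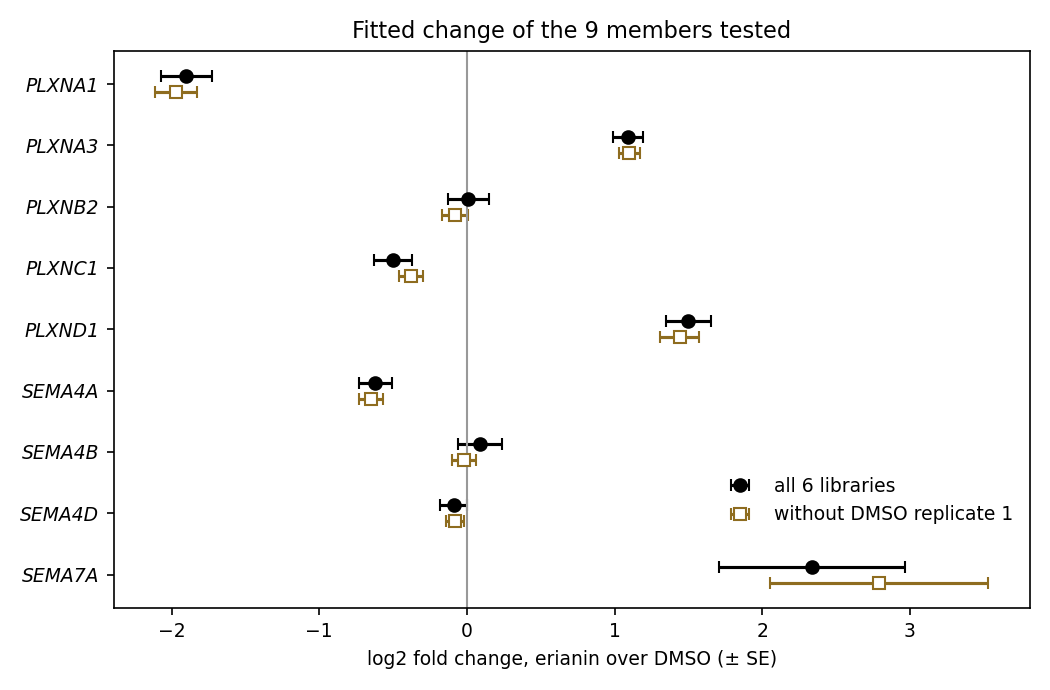
Fitted log2 fold change of erianin over DMSO (x axis) with its SE for the 9 members that entered the fit, with all 6 libraries (filled circles) and without DMSO replicate 1 (open squares). PLXNA1 lies at -1.90 and -1.97, PLXNA3 at 1.09 and 1.10, and PLXND1 at 1.50 and 1.44, while PLXNB2, SEMA4B and SEMA4D lie near 0 in both.

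Of the 10 members, 9 passed the filter. In edgeR's quasi-likelihood fit over all genes, with Benjamini-Hochberg adjustment and a threshold of 0.05, 3 of the 9 were called higher with erianin (PLXNA3, PLXND1 and SEMA7A), beside 11.8% of all 11550 genes tested, and 3 lower (PLXNA1, PLXNC1 and SEMA4A), beside 12.3% of all genes. Together 6 of 9 were called, beside 24.2% of all genes. In 7 of the 9 the groups did not overlap in CPM, beside 46.8% of all genes. Erianin lay above in 3, beside 23.6%, and below in 4, beside 23.1%. Without DMSO replicate 1 the calls were again 3 higher and 3 lower, beside 27.8% and 27.4% of the 11773 genes tested in that fit, or 6 in all, beside 55.3%. The members' median log2 fold change was 0.01, beside 0.00 over all genes tested. Nothing is read from these counts, since the members were chosen with this contrast known. With 1 library left out at a time, again as a description, PLXNA1, PLXNA3 and PLXND1 kept their calls in all 6 fits. SEMA4A kept its call in 4 (not without erianin replicate 1 or 2), PLXNC1 in 2 (without DMSO replicate 1 or 3) and SEMA7A in 1 (without DMSO replicate 1). Of all calls, 49.0% were higher with TMM scaling, 61.7% with upper-quartile scaling and 66.7% with library totals alone, where the median of all genes moved to 0.11.

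PLXNA1 against its paralogs is most direct within a library, because the factor that scales a TPM column then cancels. PLXNA3 over PLXNA1 was 50.6, 45.6 and 40.8 with erianin, against 6.39, 5.16 and 5.60 with DMSO. PLXNC1 over PLXNA1 was 9.75, 8.98 and 6.16 with erianin, against 3.94, 2.65 and 2.75 with DMSO. PLXNB2 over PLXNA1 was 4.20, 3.24 and 3.28 with erianin, against 0.897, 0.883 and 1.03 with DMSO. Each ratio was higher in every erianin library than in any DMSO library, also for PLXNB2, whose own level overlapped. The ratios share PLXNA1, the gene picked for its low level after treatment, so they are not separate findings. The log2 fold change of PLXNA1 lay below that of PLXND1 by 3.40, of PLXNA3 by 2.99, of PLXNB2 by 1.91 and of PLXNC1 by 1.40. The pooled SD of the log2 ratio between replicates was 0.15, 0.16, 0.17 and 0.34 for these pairs. These sizes carry no test, for the reason given above.

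**Figure D3:**
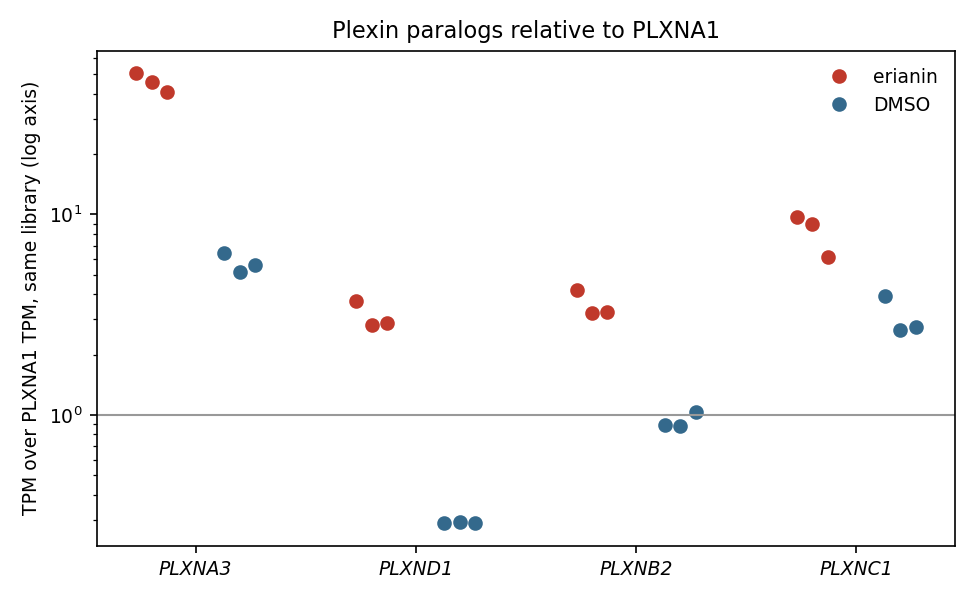
TPM of each paralog divided by the TPM of PLXNA1 in the same library (y axis, log scale; the line marks equal levels), for 3 erianin libraries (left of each pair) and 3 DMSO libraries (right). PLXND1 lies at 2.81 to 3.69 with erianin and at 0.289 to 0.292 with DMSO, crossing the line of equal levels.

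The make-up of the plexin transcripts differed accordingly. On the per-length TPM scale, PLXNA3 held 74.1% ± 1.18 of the summed level of 9 plexins with erianin and 51.7% ± 0.709 with DMSO (SD, n = 3 each), so it carried most plexin transcripts in every library of both groups. PLXNA1 held 1.64% ± 0.203 with erianin and 9.12% ± 1.04 with DMSO, the largest relative difference of these 5 shares. The share of PLXNC1 was 13.3% ± 1.71 with erianin and 27.9% ± 3.11 with DMSO, and DMSO replicate 1, at 31.5%, was the highest. PLXND1 held 5.06% ± 0.438 with erianin and 2.65% ± 0.314 with DMSO, and PLXNB2 5.79% ± 0.465 with erianin and 8.56% ± 1.28 with DMSO. PLXNA3 and PLXND1 thus had larger shares with erianin, and PLXNA1, PLXNC1 and PLXNB2 smaller ones. Shares sum to a fixed total, so a larger PLXNA3 share makes the rest smaller. The level of PLXNB2 itself was 25.5 ± 2.88 CPM with erianin and 25.3 ± 3.29 CPM with DMSO. The summed plexin level in CPM was 223 to 244 with erianin and 158 to 165 with DMSO.

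**Figure D4:**
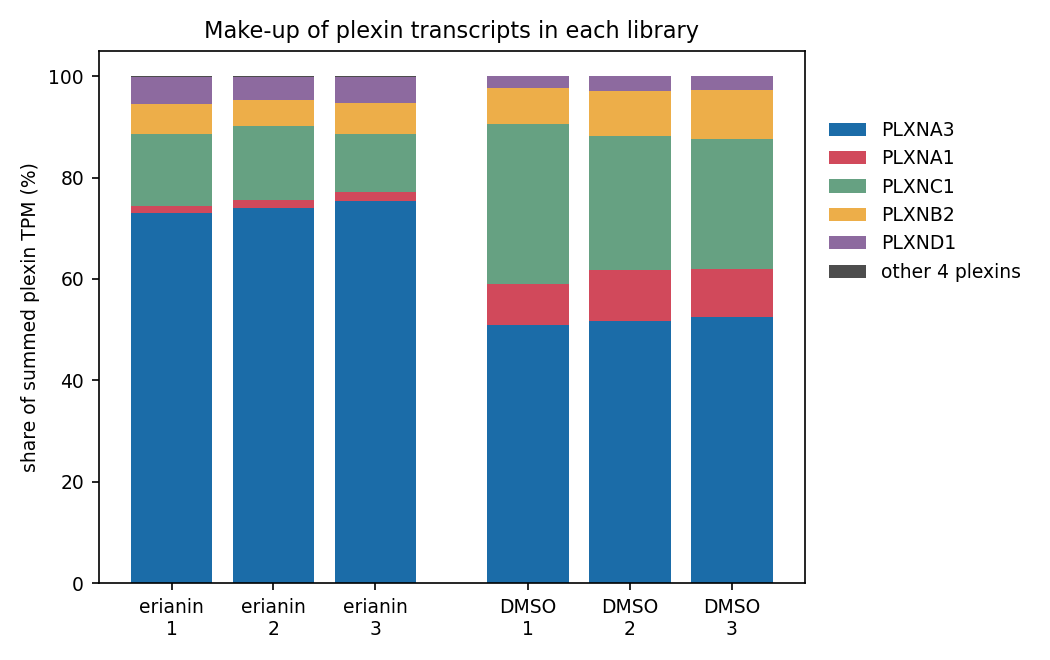
Share of each plexin in the summed TPM of 9 plexins (y axis, percent) for every library, erianin on the left and DMSO on the right. PLXNA3 takes 73.0% to 75.3% in the erianin libraries and 51.0% to 52.5% in the DMSO libraries, and the PLXNA1 band is 1.44% to 1.85% high with erianin and 7.98% to 10.0% high with DMSO.

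Ordered by TPM, PLXNA3 led the members in both groups, at 54.7 ± 3.43 with erianin and 21.7 ± 4.92 with DMSO. SEMA4D was next with erianin (12.1 ± 0.378, against 10.9 ± 2.56 with DMSO), and PLXNC1 was next with DMSO (9.80 ± 0.907 with erianin, against 11.5 ± 1.48 with DMSO). SEMA4A had 8.57 ± 0.745 TPM with erianin and 11.2 ± 3.03 TPM with DMSO, and its order with PLXNC1 was not the same in all libraries of either group. With DMSO, the order of SEMA4A and SEMA4D and that of PLXNA1 and PLXNB2 also changed between libraries. SEMA4B, at 7.88 ± 0.682 TPM with erianin and 6.41 ± 2.28 TPM with DMSO, kept the same rank in both groups. Below it with erianin came PLXNB2 (4.27 ± 0.437), PLXND1 (3.73 ± 0.397), PLXNA1 (1.21 ± 0.207) and SEMA7A (0.261 ± 0.0422), each above the next in all 3 libraries. Below it with DMSO came PLXNA1 (3.88 ± 1.22), PLXNB2 (3.65 ± 1.22), PLXND1 (1.13 ± 0.359) and SEMA7A (0.039 ± 0.0351). PLXNB1 was last in both groups. PLXNA1 was thus eighth among the members with erianin and sixth with DMSO. TPM columns summed to 39.18% of the nominal TPM total in DMSO replicate 1 and to 63.57% to 66.75% in the others, so levels in TPM are not on the same scale in all DMSO libraries.

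Promoter sequence is shown for the 3 plexins that differed most at measurable levels. The RefSeq table (GRCh38.p14) holds 1 start for each of them, and the 250 bases before it were read 5′ to 3′ on the gene's strand. For PLXNA1 the RefSeq start lies upstream of the GENCODE 29 gene start, and the window ends at 126983114, before that start at 126988594. For PLXND1, on the minus strand, part of the window lies inside the GENCODE 29 gene, which ends at 129606818. Capitals mark the GC box GGGCGG or its reverse complement, overlapping matches included.
PLXNA1, chr3:126982865-126983114, plus strand: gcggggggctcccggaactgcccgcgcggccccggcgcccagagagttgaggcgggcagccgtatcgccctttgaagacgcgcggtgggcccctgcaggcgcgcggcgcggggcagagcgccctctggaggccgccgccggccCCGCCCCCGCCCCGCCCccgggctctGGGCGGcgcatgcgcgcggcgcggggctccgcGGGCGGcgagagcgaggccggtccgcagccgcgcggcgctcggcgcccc
PLXNA3, chrX:154458031-154458280, plus strand: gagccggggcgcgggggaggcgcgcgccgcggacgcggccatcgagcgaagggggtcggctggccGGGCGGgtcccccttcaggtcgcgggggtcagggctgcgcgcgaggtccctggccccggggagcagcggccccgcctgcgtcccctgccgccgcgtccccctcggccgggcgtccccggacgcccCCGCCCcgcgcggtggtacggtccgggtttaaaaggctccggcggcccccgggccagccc
PLXND1, chr3:129606677-129606926, minus strand: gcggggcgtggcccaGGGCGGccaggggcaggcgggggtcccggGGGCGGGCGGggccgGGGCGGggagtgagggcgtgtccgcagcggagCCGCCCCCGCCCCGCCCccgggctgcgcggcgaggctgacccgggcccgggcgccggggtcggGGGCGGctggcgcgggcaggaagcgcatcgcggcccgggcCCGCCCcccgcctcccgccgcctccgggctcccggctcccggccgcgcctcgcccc

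All 3 windows were rich in G and C, at 84.4% in PLXNA1, 82.8% in PLXNA3 and 88.8% in PLXND1, against a median of 58.0% over 35116 RefSeq promoter windows of the same length. They held 5, 2 and 9 GC boxes in that order, and 42.6% of all windows held at least 1. The E-box CACGTG (6.34% of all windows), the cyclic AMP response element TGACGTCA (1.65%), the AP-1 site TGANTCA (6.57%) and the TATA box TATAAA (10.7%) were searched on both strands as well, and these letters were absent from the 3 windows. The plexin that was lower and both that were higher thus had the same result for each of these motifs apart from the number of GC boxes. The absent motifs are each found in at most 10.7% of all windows, so nothing is read from their absence.

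The other 3 plexins were at or near 0 and did not pass the filter. PLXNB3, a B-type receptor for SEMA5A, had 7, 10 and 7 reads with erianin, against 0, 1 and 0 with DMSO, PLXNA2 had at most 3 reads in a library, and PLXNA4 was listed at 0. The lists here and below were chosen with earlier results of these data known. Their calls and adjusted p-values are therefore a description and no independent test. Of the other 16 semaphorins, 7 were tested and 9 were not. By edgeR, 2 were called higher and 0 lower, beside 11.8% and 12.3% of all genes. Once DMSO replicate 1 was omitted, 2 were called higher and 0 lower, beside 27.8% and 27.4% of all genes. SEMA3G, a secreted class 3 ligand that acts through NRP2, rose to 5.67 ± 0.787 CPM with erianin, against 2.49 ± 0.636 CPM with DMSO (log2 fold change 1.19 ± 0.23, adjusted p = 0.012, higher in 3 of 3 libraries). SEMA4G rose to 4.77 ± 0.605 CPM with erianin, against 2.87 ± 0.413 CPM with DMSO (0.73 ± 0.18, adjusted p = 0.028). The call of SEMA3G ended without erianin replicate 1 or 3 (adjusted p up to 0.061), and that of SEMA4G stayed only when DMSO replicate 1 was the one omitted (adjusted p up to 0.11 otherwise). SEMA3G held 12.1% ± 1.39 of the summed semaphorin TPM with erianin and 5.16% ± 0.982 with DMSO, while SEMA4A held 22.1% ± 0.709 with erianin and 33.4% ± 1.16 with DMSO.

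Of 15 co-receptors and other semaphorin receptors, 5 were tested. Omitting DMSO replicate 1 gave 3 called higher and 0 lower, beside 27.8% and 27.4% of all genes. With all libraries, 1 was called higher and 0 lower, beside 11.8% and 12.3% of all genes. The gene called was NRP2, the neuropilin that forms the class 3 receptor with PLXNA3, which rose to 1.57 ± 0.454 CPM with erianin, against 0.624 ± 0.128 CPM with DMSO (log2 fold change 1.34 ± 0.30, adjusted p = 0.020). Its call ended without erianin replicate 1 or 2 or DMSO replicate 2 or 3 (adjusted p up to 0.085). NRP1, the neuropilin more often paired with PLXNA1, had 1 read in the 6 libraries. CD72, the B-cell receptor of SEMA4D, had 50.3 ± 1.13 CPM with erianin and 42.6 ± 1.40 CPM with DMSO (0.24 ± 0.09, adjusted p = 0.10), and it was called higher without DMSO replicate 1 (0.27, adjusted p = 0.0032). ITGB1, the beta-1 integrin that SEMA7A binds, had 35.7 ± 2.60 CPM with erianin and 41.3 ± 14.4 CPM with DMSO (-0.21 ± 0.23, adjusted p = 0.54), and DMSO replicate 1 set that spread, with an estimate of 0.12 without it.

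Of 18 GTPases and exchange factors that plexins act through, 14 were tested. The calls were 2 higher and 3 lower, beside 11.8% and 12.3% of all genes. Once DMSO replicate 1 was omitted, they were 2 higher and 5 lower, beside 27.8% and 27.4% of all genes. TIAM1, an exchange factor for Rac, fell to 17.4 ± 0.357 CPM with erianin, against 28.1 ± 0.965 CPM with DMSO (log2 fold change -0.69 ± 0.10, adjusted p = 0.0048). ARHGEF11, an exchange factor bound by B-type plexins, fell to 23.2 ± 1.06 CPM with erianin, against 32.0 ± 2.32 CPM with DMSO (-0.47 ± 0.11, adjusted p = 0.021). RHOA, its GTPase, fell to 424 ± 14.4 CPM with erianin, against 557 ± 14.2 CPM with DMSO (-0.39 ± 0.09, adjusted p = 0.021). All 3 were lower in every erianin library than in any DMSO library. FARP2, an exchange factor bound by A-type plexins, rose to 62.0 ± 3.27 CPM with erianin, against 44.8 ± 3.65 CPM with DMSO (0.47 ± 0.11, adjusted p = 0.020). CDC42, named after its values were seen to complete the count, rose as well (0.52 ± 0.12, adjusted p = 0.022). TIAM1 kept its call in all 6 fits that left out a library, while the others lost theirs in most. ARHGEF11 was called without DMSO replicate 1 or 3 (adjusted p up to 0.11 otherwise), CDC42 without erianin replicate 3 or DMSO replicate 1 (up to 0.10), and RHOA and FARP2 only without DMSO replicate 1 (up to 0.11 and 0.10).

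Of 20 downstream kinases, adaptors and effectors, 15 were tested. The calls were 2 higher and 2 lower, beside 11.8% and 12.3% of all genes. Once DMSO replicate 1 was omitted, they were 5 higher and 5 lower, beside 27.8% and 27.4% of all genes. PTPN6, which encodes SHP-1, the phosphatase that CD72 recruits, rose to 58.7 ± 4.62 CPM with erianin, against 19.8 ± 1.32 CPM with DMSO (log2 fold change 1.57 ± 0.11, adjusted p = 0.00072). The kinases of cofilin went both ways. LIMK1 rose to 114 ± 8.28 CPM with erianin, against 79.9 ± 8.39 CPM with DMSO (0.51 ± 0.12, adjusted p = 0.022). LIMK2 fell to 94.5 ± 4.49 CPM with erianin, against 160 ± 6.55 CPM with DMSO (-0.76 ± 0.10, adjusted p = 0.0033). DPYSL2, which encodes the collapsin response mediator CRMP2, fell to 64.9 ± 2.33 CPM with erianin, against 94.7 ± 7.92 CPM with DMSO (-0.54 ± 0.11, adjusted p = 0.012). PTPN6 and LIMK2 kept their calls in all 6 fits that left out a library, DPYSL2 in 4 (not without erianin replicate 1 or 2) and LIMK1 in 2 (without DMSO replicate 1 or 3).

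Of 8 proteases that cut semaphorins or plexins, 7 were tested. The calls were 1 higher and 0 lower, beside 11.8% and 12.3% of all genes. Omission of DMSO replicate 1 gave 2 higher and 1 lower, beside 27.8% and 27.4% of all genes. MMP14, a membrane protease that sheds SEMA4D, rose to 3.74 ± 0.340 CPM with erianin, against 1.44 ± 0.396 CPM with DMSO (log2 fold change 1.38 ± 0.23, adjusted p = 0.0076), and kept its call in all 6 fits that left out a library. Over all these lists, 48 of 80 genes were tested, 8 were called higher and 5 lower, beside 11.8% and 12.3% of all genes. Their median log2 fold change was 0.02, and leaving out DMSO replicate 1 gave 14 higher and 11 lower, beside 27.8% and 27.4% of all genes. None of the 5 lower calls was made with limma on either TPM scale, where 0 pathway genes were called lower.

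**Figure D5:**
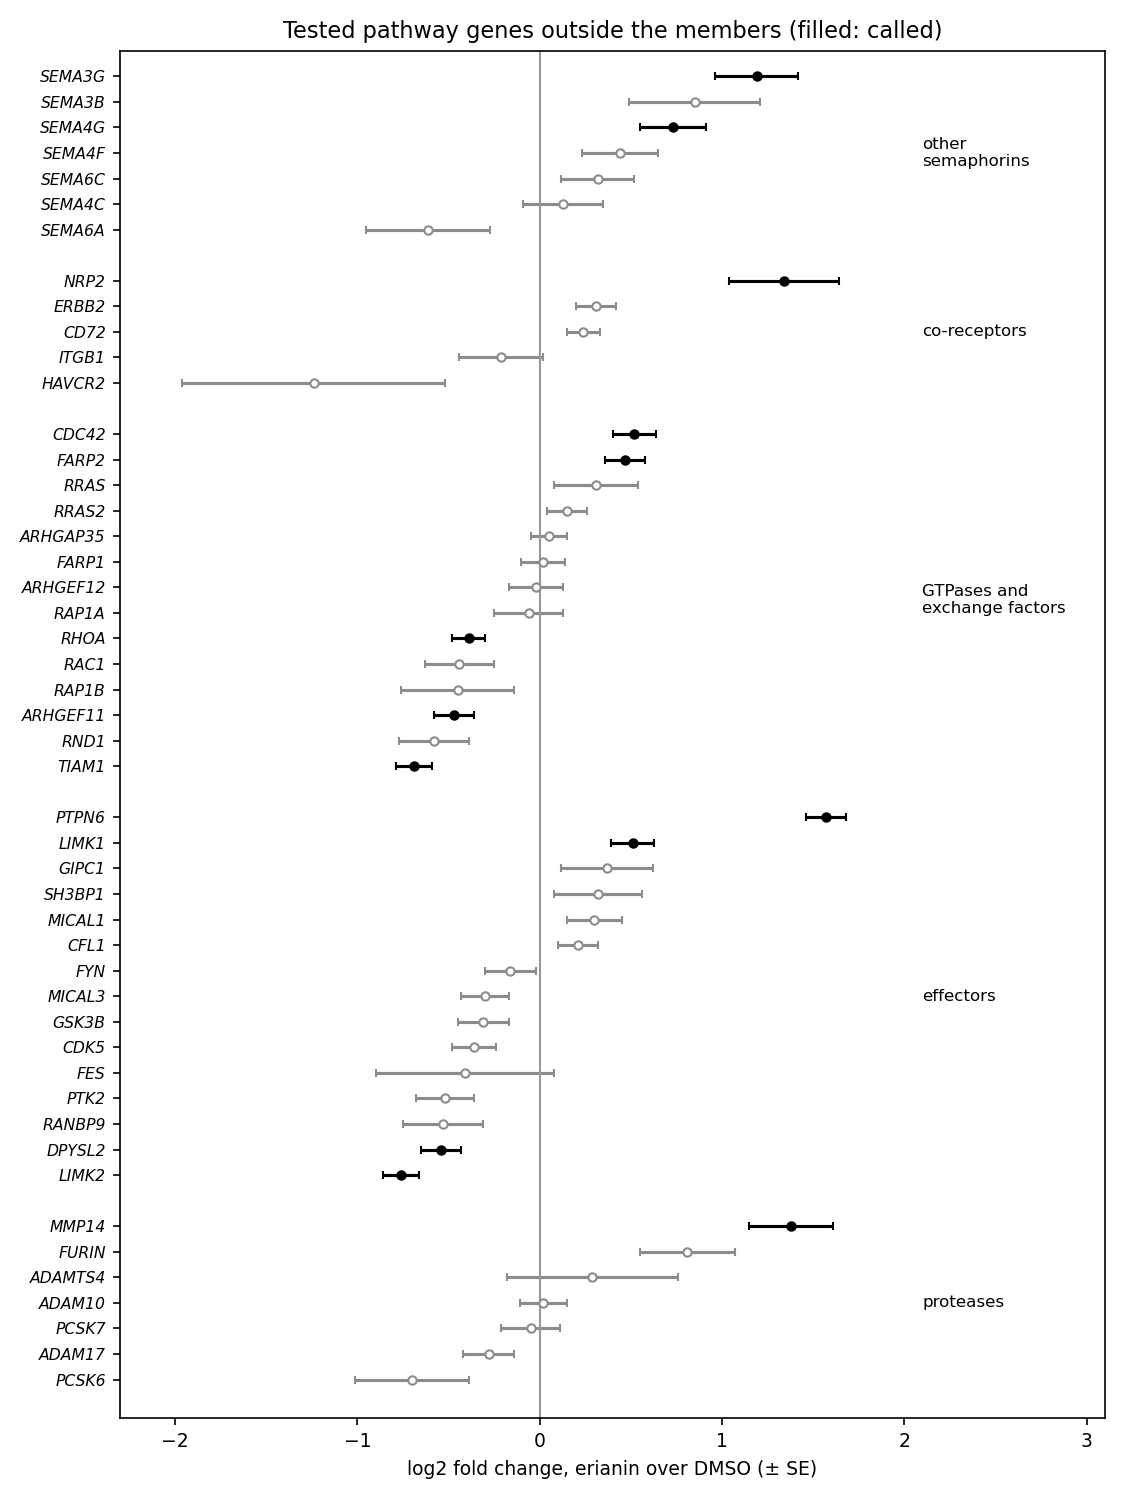
Fitted log2 fold change of erianin over DMSO (x axis) with its SE for the 48 tested genes of the pathway that are not members, by list. Filled points are the 13 genes called at an adjusted p under 0.05, of which PTPN6 lies at 1.57, MMP14 at 1.38, NRP2 at 1.34 and LIMK2 at -0.76.

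The genes whose pattern over the 6 libraries was most like that of PLXNA1 were PIM1, INHBE, NRXN2, TTYH2 and EPHX1. Likeness was the Euclidean distance between log2 CPM values centred per gene, over 7879 genes averaging at least 10 CPM, and these 5 lay at 0.26 to 0.50, against a median of 2.18. PIM1, which encodes a serine/threonine kinase, had 65.8 ± 3.73 CPM with erianin and 220 ± 33.7 CPM with DMSO (log2 fold change -1.74 ± 0.14). EPHX1, which encodes microsomal epoxide hydrolase, had 4.08 ± 0.255 CPM with erianin and 18.8 ± 1.55 CPM with DMSO (-2.20 ± 0.13). Both were lower in every erianin library than in any DMSO library, as were PLXNA1 and 23.1% of all genes tested. This follows from picking them by likeness to PLXNA1, so nothing is read from it. SEMA4A was the nearest member, at rank 468 of 7879, with PLXNC1 at 1187. PLXNA3 and PLXND1 were among the farthest, at 7776 and 7829. These ranks include the difference between groups that was known when the members were chosen, so nothing is read from them either.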

How the data were processed

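RNA was measured by sequencing in 3 erianin and 3 DMSO libraries of SU-DHL-8, grouped by the sample labels. The authors deposited raw counts and TPM, both by gene symbol, and the TPM columns fall short of their nominal total. GRCh38 was the build and STAR 2.7.10 is listed, with StringTie 2.2.1, featureCounts 2.0.1 and fastp 0.23.2, per the submitters' processing notes. Neither the annotation nor the handling of strand and of multiply mapped reads is stated there. After 61 repeated symbols were dropped, 65746 remained. Counts were fitted in edgeR 4.0.16 under R 4.3.3 with TMM factors, filterByExpr and the quasi-likelihood F test, with treatment as the only term. This tested 11550 genes, and Benjamini-Hochberg adjustment ran over all of them. An SE was computed by dividing the absolute log2 fold change by the root of its F statistic. Levels are CPM with TMM factors, or the deposited TPM where genes are compared. In a simulation of this comparison with 200 of 11550 genes changed, 48% of the genes changed 2-fold were recovered and 4% of those changed 1.5-fold. Among its 52 calls, 0% were false. It was a single draw that gave each gene the same spread in all libraries. In the data, 24.2% of genes were called and DMSO replicate 1 stood apart, so these percentages may not hold there.

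Members and lists were chosen with earlier results of these data known. Named genes were the 10 members, CD72, NRP1, NRP2, ITGB1 and PTPN6, up to 4 called genes per list with the smallest p, and the 5 genes nearest to PLXNA1. Alternatives were other scalings and filters, DESeq2 1.42.0, limma 3.58.1 on voom weights or on log2(TPM + 1) and log2(TPM + 0.1), a block for the replicate number, omission of each library, and offsets for GC content and length (mgcv 1.9.3; 98.7% of tested genes had both). The offsets with DMSO replicate 1 left out were chosen after seeing the data. Gene positions and transcripts are those of GENCODE 29, and promoters those of RefSeq. Sequences were aligned with Biopython 1.88, and plots were made in Python 3.11.15.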

Additional observations from a re-analysis of the deposited data

How the results depend on the processing

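The log2 fold changes of PLXNA1, PLXNA3 and PLXND1 kept their sign and their call in all 19 alternatives, at -2.04 to -1.11, 1.03 to 1.36 and 1.16 to 1.68. The alternatives refit the libraries on which the members were chosen. Kept calls thus describe the processing and are no test of the members. PLXNC1 was called in 12 of 19, SEMA4A in 15 of 19, and SEMA7A in 12 of the 18 that tested it. PLXNB2, SEMA4B and SEMA4D were called in none of the 19, with estimates of -0.08 to 0.28, -0.02 to 0.36 and -0.11 to 0.18. On the log2(TPM + 1) scale, which shrinks differences of low genes, PLXNA1 lay below PLXNA3 with a difference of -2.43, below PLXND1 with -2.28 (-3.24 with log2(TPM + 0.1)), below PLXNB2 with -1.33 and below PLXNC1 with -0.91. Leaving out each library in turn gave -3.08 to -2.92, -3.47 to -3.29, -1.99 to -1.80 and -1.61 to -1.27 for these pairs. Those fits called 2 to 3 members higher and 1 to 3 lower, beside 407 to 3278 and 338 to 3227 of all genes. On both TPM scales 3 members were called higher and 1 lower. Of all genes, 1408 and 1263 were called higher there and 262 and 245 lower, so 84.3% and 83.8% of calls were higher. The median of all genes moved to 0.20 and 0.28 on these scales. ITGB1 ranged from -0.36 to 0.12 with single libraries left out, with 0.12 without DMSO replicate 1, and turned to 0.10 and 0.11 on the TPM scales.

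Genes called lower numbered 919 with total counts alone, 2445 with GC content and length offsets, and 262 and 245 on the log2(TPM + 1) and log2(TPM + 0.1) scales. With the offsets and DMSO replicate 1 left out, 2890 were called higher and 4309 lower. Leaving out single libraries gave 407 to 3278 higher and 338 to 3227 lower, the most without DMSO replicate 1. Pathway genes called lower numbered 3 with total counts alone, 11 with the offsets, 8 with the offsets and the replicate block, 8 with DESeq2, and 0 with limma on both TPM scales, where 0 had an unadjusted p under 0.05. With the offsets and DMSO replicate 1 left out, 16 were called higher and 13 lower, and leaving out single libraries gave 2 to 14 higher and 2 to 11 lower. The cause of these moves was not tested.

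Samples with the same replicate number did not deviate together in every pair (correlations 0.223, -0.231 and 0.316 for replicates 1, 2 and 3). With 3 libraries per group and DMSO replicate 1 apart, these values cannot show whether equal numbers mark shared cultures or batches. With the replicate block, 1139 genes were called higher and 1157 lower, the members' 3 higher and 3 lower calls stayed, and RHOA was not called. SEMA7A and PLXNB1 are limited by depth.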
